A study of Mus musculus with 12 samples.

Results

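The normal course of cultured fibroblasts after a serum shock was followed in 6 of the 12 arrays of the series, 3 from wild-type cells at 18 h and 3 from wild-type cells at 30 h. The arrays were taken by their labels for genotype and time. Both groups were mouse embryonic fibroblasts (MEF), connective tissue cells grown from embryos, kept in DMEM to which fetal bovine serum (5%) and serum of newborn calves (5%) had been added. Both had received 50% horse serum for 2 h, and the labels separate the groups only by the time after the shock, CT18 or CT30. The other 6 arrays hold MEF labelled MLL1-KO, named for the histone methyltransferase that Kmt2a encodes, at the same times. They entered the fit as further groups of 3 and are compared with wild type at the end. The design asks for expression at 2 circadian times in each genotype. The labels name no strain, embryo, line or separate culture. Every p-value therefore rests on how far arrays within a group differ, pooled over all groups in the fit, and that spread may be technical. With 2 times 12 h apart, a daily rhythm and a change that only follows the time since serum cannot be told apart.

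In the circadian clock of mammalian cells the activators CLOCK and BMAL1, the product of Arntl, bind E-boxes and switch on their own repressors, the PER and CRY proteins, and output factors such as DBP. ROR proteins and REV-ERBs, the products of Nr1d1 and Nr1d2, act on Arntl in turn, and a pulse of rich serum sets this loop to a common phase across the cells of a dish. Serum also carries resting fibroblasts into the division cycle, in which cyclins D and E release E2F factors, and E2F factors switch on the genes that license and copy DNA.

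The promoters of 6 genes whose values are described below are shown first, as examples of clock genes that fell and of replication and cell cycle genes that rose. Whether the motifs marked in them act in these cells was not tested. The sequences are from RefSeq, build GRCm38.p6, 250 bases before to 50 after the annotated start, printed 5′ to 3′ on the strand of the gene. Capitals mark matches on either strand to the D-box, read TTATGTAA or TTACGTAA, in Per3, to the E-box CACGTG in Tef and Bhlhe41, and to an E2F site in the other 3 genes. The E2F letters searched were TTTGGCGC as well as TTTGCCGC, and TTTCGCGC as well as TTTCCCGC. Per3 lies at chr4:151044616-151044915 on the minus strand, with matches 205 and 158 bases before the start. Tef lies at chr15:81802423-81802722 on the plus strand with its match 127 bases before the start, in the first of 2 windows listed for it. Bhlhe41 lies at chr6:145865371-145865670 on the minus strand with its match 153 bases before the start. Mcm5 lies at chr8:75109259-75109558 on the plus strand, with 2 overlapping matches 153 and 149 bases before the start. Cdc6 lies at chr11:98907901-98908200 on the plus strand with its match 138 bases before the start of this window's transcript. The listed span of Cdc6 begins earlier, at 98907709, so the window and its match lie inside the gene. E2f7 lies at chr10:110745189-110745488 on the plus strand with its match 198 bases before the start.
Per3: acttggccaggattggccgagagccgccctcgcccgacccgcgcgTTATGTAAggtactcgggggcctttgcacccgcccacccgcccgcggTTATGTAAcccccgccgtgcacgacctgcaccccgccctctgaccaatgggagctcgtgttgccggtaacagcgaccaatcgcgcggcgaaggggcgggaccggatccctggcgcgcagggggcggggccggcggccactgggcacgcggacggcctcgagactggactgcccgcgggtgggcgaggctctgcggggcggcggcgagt
Tef: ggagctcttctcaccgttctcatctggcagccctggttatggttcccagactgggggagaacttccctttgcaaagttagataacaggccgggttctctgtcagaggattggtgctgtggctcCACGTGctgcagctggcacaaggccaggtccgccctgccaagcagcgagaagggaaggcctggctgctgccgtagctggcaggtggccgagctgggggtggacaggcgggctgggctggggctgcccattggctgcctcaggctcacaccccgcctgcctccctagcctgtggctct
Bhlhe41: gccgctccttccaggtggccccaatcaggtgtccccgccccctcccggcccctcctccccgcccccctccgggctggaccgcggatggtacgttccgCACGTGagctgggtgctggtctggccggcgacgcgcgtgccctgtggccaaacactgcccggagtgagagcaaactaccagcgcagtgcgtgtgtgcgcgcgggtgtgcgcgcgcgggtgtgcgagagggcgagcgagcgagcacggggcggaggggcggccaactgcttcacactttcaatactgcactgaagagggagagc
Mcm5: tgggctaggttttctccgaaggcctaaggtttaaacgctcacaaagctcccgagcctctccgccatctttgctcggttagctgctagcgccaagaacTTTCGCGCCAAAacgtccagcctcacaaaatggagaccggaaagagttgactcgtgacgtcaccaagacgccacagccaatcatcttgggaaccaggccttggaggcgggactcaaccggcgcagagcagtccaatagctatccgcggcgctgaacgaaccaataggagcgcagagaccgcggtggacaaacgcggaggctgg
Cdc6: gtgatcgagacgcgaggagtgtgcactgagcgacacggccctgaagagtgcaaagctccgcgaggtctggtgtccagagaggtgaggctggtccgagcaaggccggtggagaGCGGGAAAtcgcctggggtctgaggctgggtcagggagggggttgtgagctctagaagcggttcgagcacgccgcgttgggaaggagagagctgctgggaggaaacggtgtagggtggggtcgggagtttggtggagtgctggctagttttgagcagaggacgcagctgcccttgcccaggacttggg
E2f7: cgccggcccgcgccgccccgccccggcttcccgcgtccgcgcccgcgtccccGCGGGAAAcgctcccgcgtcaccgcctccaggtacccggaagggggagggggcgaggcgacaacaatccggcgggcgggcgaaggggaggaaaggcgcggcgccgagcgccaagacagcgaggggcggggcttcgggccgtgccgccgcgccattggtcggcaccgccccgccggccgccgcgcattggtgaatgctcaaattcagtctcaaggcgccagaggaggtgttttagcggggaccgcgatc

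The values are intensity per probe set, and all differences below are 30 h minus 18 h of log2(intensity + 16), a scale that understates the change of dim genes. Single arrays are called W18a, W18b and W18c for wild-type replicates 1, 2 and 3 at 18 h, W30a to W30c for those at 30 h, and K18a to K18c and K30a to K30c for the knockout arrays in the same order. The 6 wild-type arrays had median intensities of 273.3 to 311.8. Across the 13956 genes tested, each 30 h array correlated with the other 30 h arrays at 0.9945 to 0.9956. Array W18c stood between the times, with a mean correlation of 0.9910 with the other 18 h arrays and 0.9914 with the 30 h arrays. On the first principal component of the wild-type arrays, which held 47.4% of their variance, it lay at -2.15, the other 18 h arrays at -11 and -15.9, and the 30 h arrays at 6.1 to 12. Kmt2a itself had intensities of 2265, 2824 and 2099.7 at 18 h and 2129, 2155 and 2069 at 30 h, which overlap, with a log2 difference of -0.17 (SE 0.10, adjusted p = 0.4).

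Markers of fibroblasts were high in both groups. Vim, the intermediate filament of mesenchymal cells, Col1a1 and Col1a2, the chains of type I collagen, and the transcription factor Prrx1 lay at or above the 98.5th percentile of all measured genes, and the receptor Pdgfra at the 93.9th. Lum and Fap, a proteoglycan and a surface protease of fibroblasts, lay at the 2.86th and 6.8th percentiles, and Thy1 at the 34.5th. Over the 12 arrays 13956 of 19938 genes reached the level needed for testing. In wild type 12 of 14 fibroblast and 6 of 10 pericyte markers reached it. So did 2 of 10 endothelial, 5 of 11 measured macrophage and blood cell and 9 of 11 epithelial markers. Of 11 measured neural markers 4 did, of 10 skeletal muscle markers 5 and of 8 adipocyte markers 8. The epithelial markers Krt19 and Trp63 lay at the 89.9th and 83.9th percentiles, and the others that reached the level between 34.5 and 48.2. Among adipocyte markers Fabp4, a fatty acid carrier, lay at the 90th percentile and Pparg, the regulator of fat cell formation, at the 94.4th. The summed intensity of the fibroblast markers was 54184 to 57342 at 18 h and 53930 to 56122 at 30 h, and of the epithelial markers 6343 to 6880 and 6624 to 6882, so both overlapped. The sums did not overlap for adipocyte markers, at 10347 to 10830 against 9306 to 9622, for pericyte markers, at 9090 to 9548 against 8451 to 8888, and for macrophage and blood cell markers, at 2755 to 2872 against 2473 to 2584. Single genes weigh heavily in the last 2 sums. Mean Cd68 went from 1175 to 934, but 4 of 6 tested macrophage and blood cell markers had estimates above 0, with a median of 0.01. Mean Notch3 went from 1767 to 1241, and of 6 tested pericyte markers 4 had estimates below 0 and 2 above. All 8 adipocyte markers had estimates below 0. Single markers called were Dcn, Notch3 and Lipe, all lower, at -0.62, -0.50 and -0.48. None of these calls passed without W30a (-0.54, -0.45 and -0.41), nor those of Notch3 and Lipe without W18b (-0.41 and -0.48), nor that of Lipe without W30c (-0.52). In bulk RNA fewer cells of a type and less RNA per cell cannot be told apart, and the part of these lower sums in the gene results was not tested.

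In wild type 553 of the 13956 tested genes changed between 18 h and 30 h, 3.96%, by limma with Benjamini-Hochberg adjusted p under 0.05. The 337 genes that were higher made up 2.41% of those tested and the 216 lower 1.55%. Every count of called list members below is to be read beside these shares. The changes were modest: the median log2 difference was 0.38 among the higher genes and -0.43 among the lower, 41 and 31 genes reached 1.5-fold, and 2 and 4 reached 2-fold. The 3 arrays of each time did not overlap in 550 of the 553, and in 25.6% of all genes tested. Where groups of a called gene are said below to be apart, that is therefore no further support for the call. By limma 2557 of the 13956 genes had an unadjusted p under 0.05. Higher genes made up 60.9% of the calls, and 50.7% after cyclic loess scaling. The counts rest on few arrays. Without W18a, W18b or W18c there were 169, 113 and 483 higher and 91, 67 and 428 lower genes. Without W30a, W30b or W30c there were 110, 187 and 74 higher and 55, 135 and 84 lower, and without K18a or K30b there were 606 and 223 higher and 429 and 159 lower. Unless an array is named beside it, each gene said below to have risen or fallen kept its call when each of the 12 arrays was left out in turn.

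**Figure D1:**
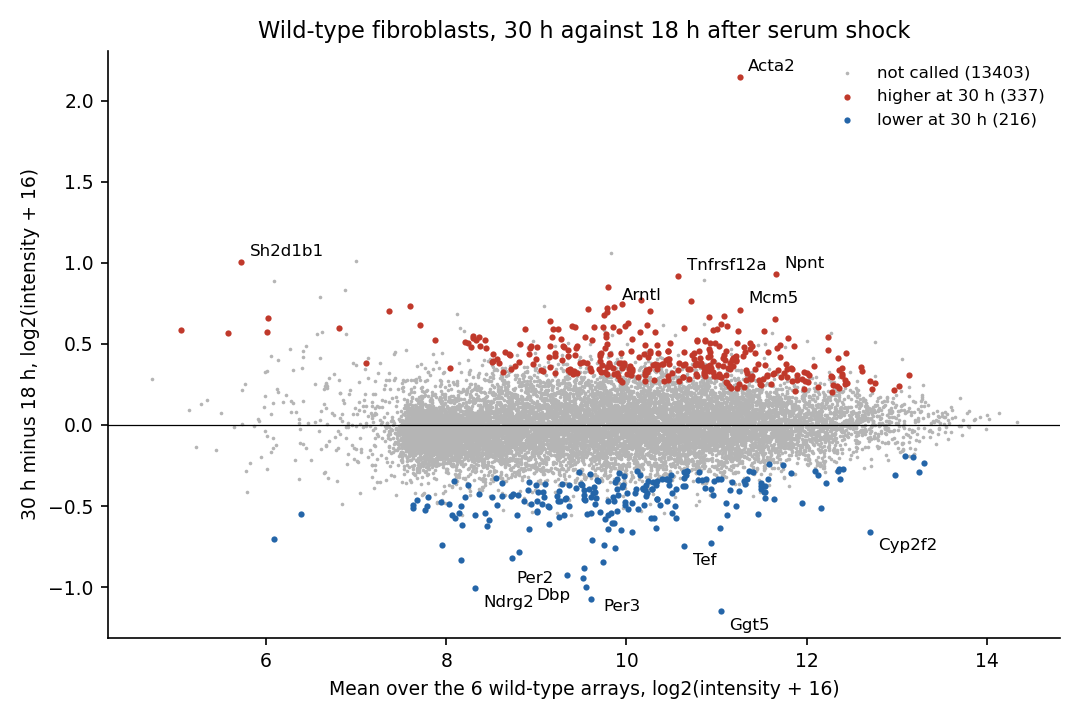
The log2 difference between 30 h and 18 h in wild type (vertical axis) against the mean log2(intensity + 16) over the 6 wild-type arrays (horizontal axis), 1 point for each of 13956 genes. The 337 genes called higher are red and the 216 called lower blue, and Acta2 has the largest rise, at 2.14.

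The gene with the largest rise was Acta2, the smooth muscle actin of contractile fibroblasts, with intensities of 1404, 1086 and 1001 at 18 h and 4732, 4731 and 6082 at 30 h. Every 30 h array was far above every 18 h array, and the log2 difference was 2.14 (SE 0.13, adjusted p = 2.84e-07). Npnt, a matrix ligand of integrins, had 2322, 2432 and 2248 at 18 h and 4592, 4531 and 4275 at 30 h, and rose by 0.93 (SE 0.07). Tnfrsf12a, the receptor of the cytokine TWEAK, had 1097, 1149 and 1036 at 18 h and 1967, 1929 and 2376 at 30 h, and rose by 0.92 (SE 0.10). The largest rises and falls were named only among called genes whose arrays of the 2 times did not overlap. The separation of the groups in them follows from that choice. Id2, an inhibitor of helix-loop-helix transcription factors, rose by 0.77, and Lrrc8b, a subunit of volume-regulated anion channels, by 0.71. The protease inhibitor genes Serpinb9e and Serpinb9c rose by 0.85 and 0.70. They belong to a family of near-identical copies whose signals an array may not separate. Sh2d1b1, a signalling adaptor of immune cells, rose by 1.00 at a low level, with 29.5, 26.7 and 10.8 at 18 h and 50.5, 59.6 and 67.7 at 30 h. It is among 10 called genes, 8 higher and 2 lower, whose mean in wild type lay under the level needed for testing, an intensity of 174.8, and which passed through the arrays labelled knockout.

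The largest fall was in Ggt5, an enzyme that cleaves glutathione conjugates and leukotriene C4, with 2745, 3346 and 3359 at 18 h and 1208, 1556 and 1479 at 30 h. All 30 h arrays lay under all 18 h arrays, a log2 difference of -1.15 (SE 0.11, adjusted p = 4.63e-05). Ndrg2, a stress and differentiation gene, had 511, 435 and 372 at 18 h and 171, 210.1 and 252 at 30 h and fell by 1.01. Sorbs2, an adaptor of the actin skeleton, had 978, 1175 and 879 at 18 h and 479, 546 and 516 at 30 h and fell by 0.95. In both the groups were apart, with the 18 h arrays of Ndrg2 spread from 372 to 511. Hpse, which cuts heparan sulfate, fell by 0.84, A4galt, which makes the glycolipid Gb3, by 0.82, and Plac8 by 0.84. Mr1, which presents vitamin B metabolites to T cells, fell by 0.73 with 2679.6, 2519.8 and 2361 at 18 h and 1508, 1432 and 1597 at 30 h. Cyp2f2, a cytochrome P450, was the brightest of these genes, and fell by 0.66 with 8285, 8231 and 8550.5 at 18 h and 5129, 5266 and 5477 at 30 h. Mt2, a metal-binding metallothionein, fell by 0.64 with 2831, 2466 and 2514 at 18 h and 1566, 1562 and 1895 at 30 h. Ggt5, Ndrg2 and Mt2 belong to a list of 15 tested serum- and steroid-responsive genes, of which 4 were lower and 0 higher at 30 h, with a median of -0.22 against -0.01 over all genes tested.

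Among clock genes the activator gene Arntl rose, and 6 repressor genes had called falls. Of 41 tested genes on the clock lists 2 were higher and 9 lower, and Arntl was the only higher one without W18a or W30b or W30c. Among the 5 tested activator genes Arntl had 781, 711 and 633 at 18 h and 1168, 1136 and 1243 at 30 h, so each 30 h array exceeded each 18 h array. Its log2 difference was 0.73 (SE 0.10, adjusted p = 0.00103). Its partner Clock had 2501, 2684 and 2217 at 18 h and 2811, 2926 and 2496 at 30 h, which overlap, with a difference of 0.15. Rorb, which activates Arntl, was at 0.05. Rora, with the same role, had 899, 888 and 768 at 18 h and 573, 660.1 and 617 at 30 h and a called difference of -0.45, which did not pass without W18a (-0.41) or W18b (-0.42) or W30a (-0.40) or W30c (-0.45). Arntl2, a paralog of Arntl, had 3435, 4019.9 and 3051 at 18 h and 2490.3, 2811 and 2765 at 30 h. Its groups did not overlap, and its difference of -0.37 was not called (adjusted p = 0.106), but passed without W18c (-0.47) or K18a (-0.37).

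Of the 12 repressor genes 6 were called lower and 0 higher, with a median difference of -0.35. Per3 had 1060.1, 1304 and 1002 at 18 h and 468, 585 and 519.7 at 30 h, Per2 had 828, 949 and 848 at 18 h and 430.1, 481 and 451 at 30 h, and for both all 30 h arrays lay under all 18 h arrays. They fell by 1.07 (SE 0.12) and 0.92 (SE 0.08). Per1, whose product forms the same complex, had 879, 1021 and 949 at 18 h and 716, 837 and 756 at 30 h. These groups were apart too, but the difference of -0.30 was not called (adjusted p = 0.139). Bhlhe41 and Bhlhe40, which encode the E-box repressors DEC2 and DEC1, fell by 0.61 and 0.53, with 669, 703 and 672 at 18 h and 379, 504 and 447 at 30 h for Bhlhe41. Among the cryptochromes Cry2 had 910.4, 996 and 900.0 at 18 h and 611, 699.6 and 679.7 at 30 h, with a called difference of -0.49 that did not pass without W18b (-0.44) or W30a (-0.43). Cry1 had 285, 289 and 291 at 18 h and 227, 252 and 266 at 30 h, with -0.21 and adjusted p = 0.217. Of the REV-ERB genes, Nr1d1 overlapped between the times, with 1427, 1563 and 1709 at 18 h and 1538, 1662 and 1545 at 30 h, while Nr1d2 had 2878, 2914 and 2586 at 18 h and 2119, 2204 and 1976 at 30 h. Nr1d2 was called at -0.41, but did not pass without W18a (-0.39) or W18b (-0.38) or W30a (-0.42) or W30c (-0.37). Timeless and Tipin, which act at the replication fork as well, were at 0.19 and 0.27, both with groups apart and neither called.

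Output genes were mixed. Dbp and Tef, which encode activators of D-boxes, fell together. Dbp had 1034, 970.3 and 1141 at 18 h and 517, 539 and 489.7 at 30 h, a difference of -1.0 (SE 0.10, adjusted p = 4.63e-05), and Tef had 2016, 2129.5 and 2021 at 18 h and 1192, 1280.3 and 1187 at 30 h, a difference of -0.75 (SE 0.08, adjusted p = 6.74e-05). In both genes the gap between the times was wider than the spread of either group. Hlf, the third activator of this family, had 341, 306 and 355 at 18 h and 385, 303 and 320.4 at 30 h, which overlap, with a difference of 0.00. Nfil3, which represses D-boxes, was at 0.10 with overlapping arrays. Of the 16 tested outputs 2 were lower and 1 higher, with a median of -0.12, and 4 were lower and 2 higher without K18a. The higher one was Pdk4, an inhibitor of pyruvate dehydrogenase, at 0.40, which did not pass without W18a (0.40) or W30b (0.41) or W30c (0.36). None of 8 tested genes for clock protein turnover was called by limma, 1 had an unadjusted p under 0.05, and 1, Fbxl21, which encodes an F-box protein that acts on cryptochromes, passed without W18c (-0.59 against -0.44), K18a (-0.44) or K18c (-0.44) or K30a (-0.44). The kinase gene Csnk1e, whose product phosphorylates PER proteins, had 3218, 3278 and 3240.2 at 18 h and 3152, 3123 and 3284 at 30 h, which overlap.

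**Figure D2:**
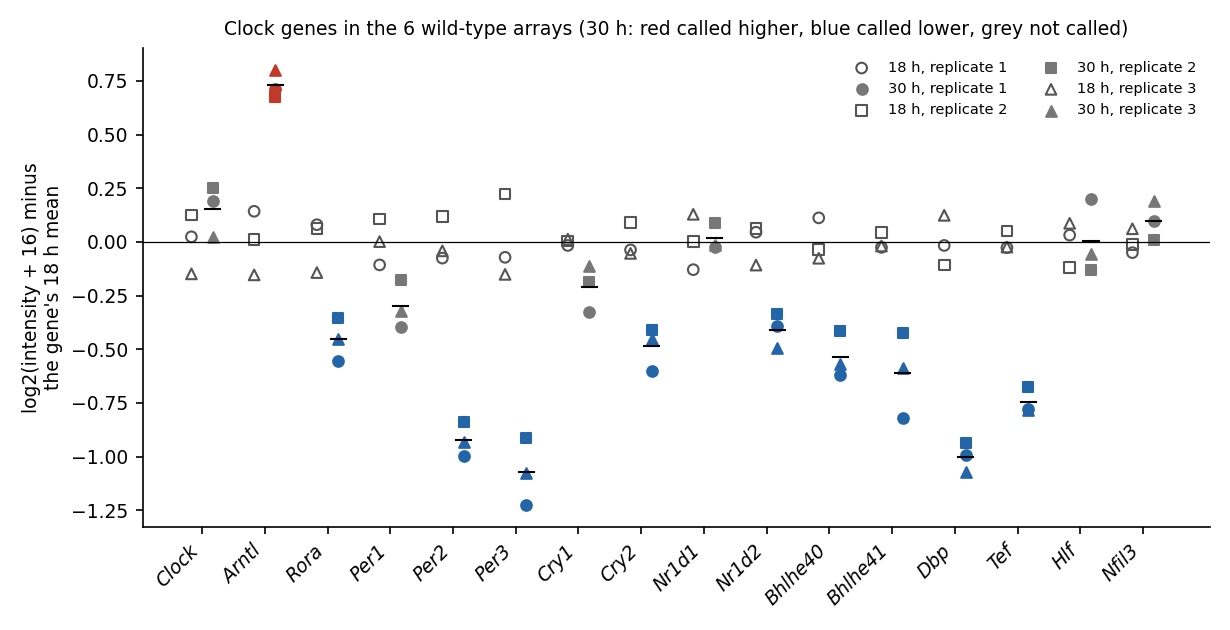
Log2(intensity + 16) of the main clock genes in each of the 6 wild-type arrays, minus the mean of the gene's 18 h arrays (vertical axis), with open symbols at 18 h, filled at 30 h and a bar at the 30 h mean. Arntl lies above its 18 h arrays, and Per2, Per3, Dbp and Tef lie furthest below theirs.

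Many genes that license and copy DNA were called higher at 30 h. Of 80 tested genes on the licensing, replication fork and G1/S lists 43 were called higher and 0 lower, with a median of 0.31, where 2.41% of all genes rose. At an unadjusted p under 0.05 limma gave 57 higher and 1 lower of the 80. In the licensing list 13 of 25 were higher, and 24 of 25 had estimates above 0, against 45.9% of all genes. Cdc6, which loads the replicative helicase at origins, had 679.6, 699 and 625 at 18 h and 1062, 989.6 and 1192 at 30 h, and rose by 0.68 (SE 0.09, adjusted p = 0.000598). Mcm5, a subunit of that helicase, had 1800.2, 1729 and 2190.3 at 18 h and 3002, 3038 and 3319 at 30 h, and rose by 0.71 (SE 0.09, adjusted p = 0.000357). For both genes, whose promoters are printed above, the 30 h arrays lay apart from the 18 h arrays, and W18c was the highest of its group for Mcm5 and the lowest for Cdc6. The helicase genes Mcm3 and Mcm2 each rose by 0.49, with 2887, 2999 and 3511 at 18 h and 4383, 4117 and 4647 at 30 h for Mcm2. Without W18a or W18b or W30a the number of licensing genes called was 8, and without W30c it was 6. Without W18b, W30a or W30c the 43 over all these lists became 28, 27 and 21.

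At the replication fork 21 of 31 tested genes were higher, all 31 had estimates above 0, and the median was 0.35. Without W18b or W30a the count was 12, and without W30c it was 9. Tk1, the thymidine kinase of the nucleotide salvage pathway, had 1645, 1648 and 1771 at 18 h and 2308, 2412 and 2488 at 30 h, and rose by 0.51. Asf1b, a histone chaperone, had 3047, 2723 and 3028 at 18 h and 4246, 3965 and 4598 at 30 h, and rose by 0.54. Uhrf1, which brings the maintenance DNA methyltransferase to new DNA, rose by 0.52. In all of them the lowest 30 h array exceeded the highest 18 h array. Dna2, a nuclease of lagging-strand synthesis that was in none of these lists, was among the largest rises, with 670.2, 701 and 643 at 18 h and 1024, 1131 and 1195 at 30 h and a difference of 0.72. Rpa2, a subunit of the single-strand binding protein, was called at 0.56, but not without W18b (0.51) or W30c (0.47).

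Of 24 genes of G1/S control 9 were called higher and 0 lower, with a median of 0.15. Ccnd1, cyclin D1, had 4269, 3859 and 3817 at 18 h and 5905, 5589 and 5937 at 30 h, a rise of 0.54 (SE 0.06, adjusted p = 0.000148). The cyclin E genes Ccne1 and Ccne2 rose by 0.58 and 0.60, with 1948, 1884 and 2033 at 18 h and 2904, 2773 and 3112 at 30 h for Ccne1. E2f7, an E2F family repressor whose own promoter holds an E2F match, had 1823, 1839 and 1680.4 at 18 h and 2656, 2807 and 2719 at 30 h, and rose by 0.61. The inhibitors of cyclin-dependent kinases on this list were not called.

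Most genes of mitosis were not called. Of 35 tested genes 4 were higher and 0 lower, 33 had estimates above 0, and the median was 0.15. Of all genes tested 2.41% were called higher and 45.9% had estimates above 0. Plk1, a kinase of mitotic entry, had 2639, 2554 and 2639 at 18 h and 3316, 3464 and 3336 at 30 h, and rose by 0.37. Without W18b or W30a or W30c only 1 gene passed, without W30b or K30b there were 2, and without K18a there were 8. Of 16 repair genes 4 were higher and 0 lower, among them Exo1, a nuclease of mismatch repair, by 0.50, and Clspn, a checkpoint adaptor, by 0.44. Without W18b or W30b or W30c the count was 2. Of 8 tested genes on the list of replication-dependent histones, 2 were called higher, with a median of 0.46 over the list. They were the histone gene H1f1 at 0.75 and Slbp, which is not a histone gene, at 0.46. H1f1 did not pass without W18a (0.69), and neither passed without W18b, W30a or W30c. Without W18b or W30a or W30c there were 0, without W18a or W18c there were 1 and 4, and without K30a there were 5. Histone genes are near-identical copies, and their signals may not be separate.

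**Figure D3:**
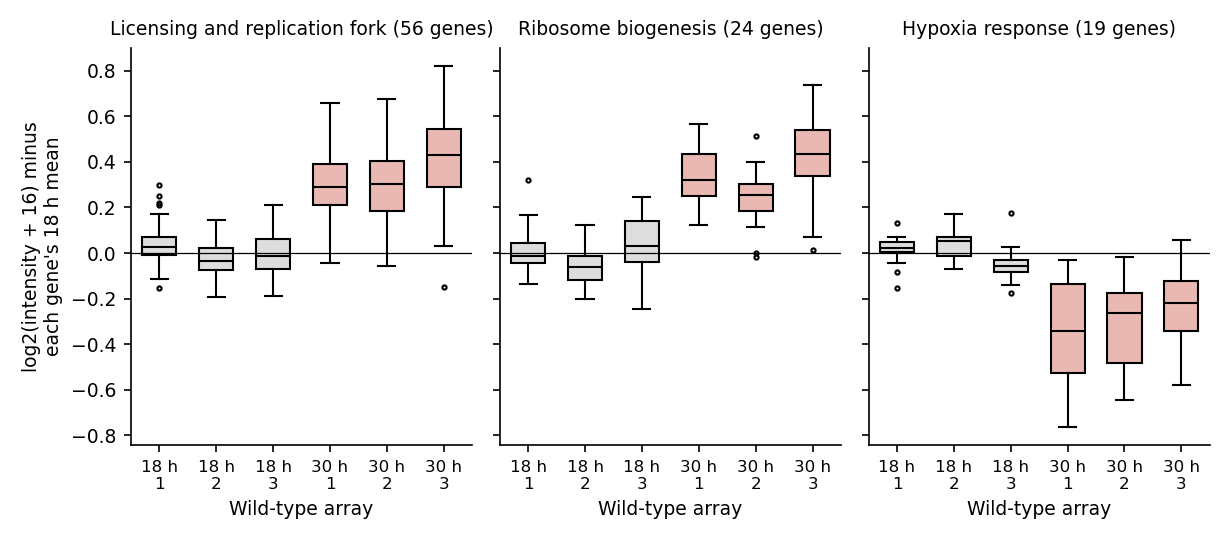
Box plots of log2(intensity + 16) minus each gene's 18 h mean (vertical axis) in each wild-type array (horizontal axis) for 56 licensing and replication fork genes, 24 ribosome biogenesis genes and 19 hypoxia response genes, where the line in a box is the median. The medians of the licensing and fork genes were 0.29, 0.30 and 0.43 in the 30 h arrays and between -0.03 and 0.03 at 18 h.

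Of 24 tested genes of ribosome biogenesis 12 were called higher and 0 lower, all 24 had estimates above 0, and the median was 0.35. Nop56, a core protein of the particles that modify ribosomal RNA, had 4020.0, 4004 and 4223 at 18 h and 5606, 5016 and 6369.6 at 30 h, and rose by 0.46 (SE 0.07, adjusted p = 0.00294). Rrp12, which takes part in the export of ribosomal subunits, had 341, 353 and 404 at 18 h and 549, 529 and 599.6 at 30 h, and rose by 0.59. The median of the list was between 0.26 and 0.43 in each 30 h array, in the box plots by array, and at most 0.03 in each 18 h array. The number called moved with single arrays and was 4 without W18a, 2 without W18b, 3 without W30a, 2 without W30c, and 7 without K18b or K30b. Of 19 tested genes of cytosolic ribosomal proteins 0 were called by limma, 2 had an unadjusted p under 0.05 and the median was 0.10, and 2 were called without W18c.

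Of 23 tested genes under ATF4, the transcription factor of the response to amino acid shortage, 10 were called higher and 1 lower, with a median of 0.30. Chac1, which degrades glutathione, had 1119, 1168 and 1597 at 18 h and 2197, 1994 and 2377 at 30 h, and rose by 0.77 (SE 0.13, adjusted p = 0.00447). W18c was the highest of its group for Chac1, yet under all 30 h arrays. Slc7a1, an importer of cationic amino acids, had 1541, 1616 and 1683 at 18 h and 2343, 2240.0 and 2724 at 30 h, and rose by 0.59. Phgdh, the first enzyme of serine synthesis, was called at 0.60, but not without W18b (0.49) or W30c (0.54). Mthfd2, of mitochondrial folate metabolism, was called at 0.59, but not without W30c (0.48). The list count was 5 without W18a or W30a, 4 without W18b and 3 without W30c, and the lower gene did not pass without W18b or W30a or W30b. Of 22 genes of the unfolded protein response 2 were higher, with a median of 0.04, among them Sdf2l1, of the endoplasmic reticulum, with 2042, 1692 and 2317 at 18 h and 2739.9, 2874 and 2951 at 30 h and a rise of 0.51. The count was 1 without W18b or W30c and 4 without K18a. Of 21 heat shock chaperones 7 were higher and 0 lower with a median of 0.23. That count fell to 2, 1, 0, 2 and 2 without W18a or W18b or W30a, W30b or W30c, and to 4 and 3 without K18b or K30b.

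Of 19 tested genes of the response to low oxygen 6 were called lower, 0 higher and 13 not called, all 19 had estimates below 0, and the median was -0.29. Egln3, an oxygen-sensing prolyl hydroxylase, had 1289, 1421 and 1277 at 18 h and 776, 844 and 885 at 30 h, and fell by 0.66 (SE 0.11, adjusted p = 0.003). Bnip3, which marks mitochondria for removal, had 5988, 5199.5 and 5232 at 18 h and 3854, 3648 and 4000.0 at 30 h, and fell by 0.51 (SE 0.06, adjusted p = 0.000339). P4ha2, a collagen prolyl hydroxylase, had 1549.6, 1496 and 1453 at 18 h and 1003, 1072 and 1199.9 at 30 h, and fell by 0.46. The groups of each gene were apart. Pdk1, which holds pyruvate back from the mitochondria, was called at -0.56, but not without W18b (-0.51) or W30a (-0.51). With each array left out in turn the count of lower genes ran from 4, as without W18b, to 11 without K18a. Of 17 glycolysis genes 3 were lower and 0 higher, 16 had estimates below 0 and the median was -0.15. The largest of them was Eno2, an enolase, with 904, 1149 and 932 at 18 h and 443, 538 and 625 at 30 h and a fall of 0.88. Without W18a, W30a, W30b or W30c, or K18b or K30b, Eno2 was the only glycolysis gene called. Without K18a there were 5.

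Of 24 tested genes linked to FOXO factors and to quiescence 6 were called lower and 0 higher, 18 were not called, 23 had estimates below 0 and the median was -0.16. Gas6, a ligand of TAM receptors first found in growth-arrested cells, had 503, 548 and 501 at 18 h and 309.7, 344 and 391 at 30 h, and fell by 0.55 (SE 0.10, adjusted p = 0.00608). Dcn, the proteoglycan decorin and also a fibroblast marker, had 524, 387 and 357 at 18 h and 236, 247 and 319.7 at 30 h, with a called difference of -0.62 that did not pass without W30a (-0.54). The count of lower genes was 2, 3, 1 and 2 without W18a or W18b or W30a or W30c. Genes of oxidative phosphorylation had 25 of 28 estimates above 0 and a median of 0.13, and genes of cholesterol synthesis 18 of 20 and a median of 0.10. In each 1 gene was called higher. The oxidative phosphorylation gene did not pass without W18a or W18b or W30a or W30c, and 3 passed without W18c. No cholesterol gene passed without W18b, W30a, W30b or W30c, or K18b or K30b, and 2 passed without K18a. The one called with all arrays, Insig1, a brake on sterol synthesis, was at 0.35, and did not pass without W18a (0.35) or W18c (0.34) either.

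Most other genes on the list that holds Acta2 were not called. Of 21 tested smooth muscle contractile genes and their regulators 2 were higher and 1, Sorbs2, lower, with 14 estimates below 0 and a median of -0.10. Without W18a or W18b or W30a, W30b or W30c Acta2 was the only higher gene, and without K18a there were 4. Among 17 genes responsive to TGF-beta, YAP and SRF 4 were higher and 2 lower. Tnfrsf12a held in every fit, while Ankrd1, a muscle ankyrin repeat gene, was called at 0.61, but not without W18b (0.51) or W30a (0.64) or W30c (0.56). The 4 higher genes became 2 without W18a, and 1 without W18b or W30a or W30c. The 2 lower genes became 0 without W18a or W18b, W30a or W30c, or K18b, and 1 without W30b or K30b.

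Among matrix genes Npnt was the only rise of 22 matricellular and basement membrane genes and 2 were lower, of which Ccn5, a CCN family protein, had 949, 1023 and 1004 at 18 h and 602, 578 and 622 at 30 h and fell by 0.71 (SE 0.11). The other was Dcn, so 1 was left without W30a. Plod1, a lysyl hydroxylase of collagen, had 5148, 5196 and 5754 at 18 h and 4091, 4335 and 4135 at 30 h, and fell by 0.36. Of 30 tested collagen and fibre assembly genes it was the 1 lower gene, and 3 were higher, Col8a1, Col4a2 and Fbln2 at 0.37, 0.30 and 0.27. The higher count was 0 without W30a or W30c, and 1 without W18a or W18b, W30b or K30b. Of ID protein and BMP genes 1 of 21 was higher, Id2, with 906, 839 and 829.5 at 18 h and 1429.8, 1436 and 1568 at 30 h, and 2 were without W18c.

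Of 23 tested immediate early genes, the first to answer serum, 2 were called higher and 0 lower, with a median of 0.08. By limma 6 had an unadjusted p under 0.05, where 2557 of all 13956 genes did. The groups did not overlap in 7 that were higher and 2 that were lower, and in 25.6% of all genes. Atf3, a stress-induced repressor, had 872, 877 and 1119 at 18 h and 1573, 1337 and 1789 at 30 h, and rose by 0.70 (SE 0.13, adjusted p = 0.00608). Nr4a2, an orphan nuclear receptor, had 736, 867 and 729 at 18 h and 1135, 1159.8 and 1199 at 30 h, and rose by 0.58. Without K18a, 4 were higher. Ptgs2, the inducible prostaglandin synthase COX-2, had 2472, 2509.6 and 2668 at 18 h and 4094, 3961 and 3984 at 30 h, and rose by 0.65 (SE 0.07, adjusted p = 8.3e-05), and the 30 h arrays lay close together. Ereg, a ligand of the EGF receptor, had 1672, 1784 and 1623 at 18 h and 2611, 2508 and 2711 at 30 h, and rose by 0.62. Of 19 cytokine and chemokine genes 3 were higher, Ptgs2 among them, and 1 without W18a or W18b or W30b or W30c. Ctsl, a lysosomal protease, had 6251, 5738 and 5866 at 18 h and 4507, 4517 and 5179 at 30 h, and fell by 0.33. None of 18 tested p53 targets and none of 25 tested interferon-stimulated genes was called by limma, with medians of 0.08 and -0.05. An unadjusted p under 0.05 by limma was found for 6 and 1 of them, and for 2557 of all 13956 genes. Without W18c and K18a, 1 and 2 p53 targets were called.

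**Figure D4:**
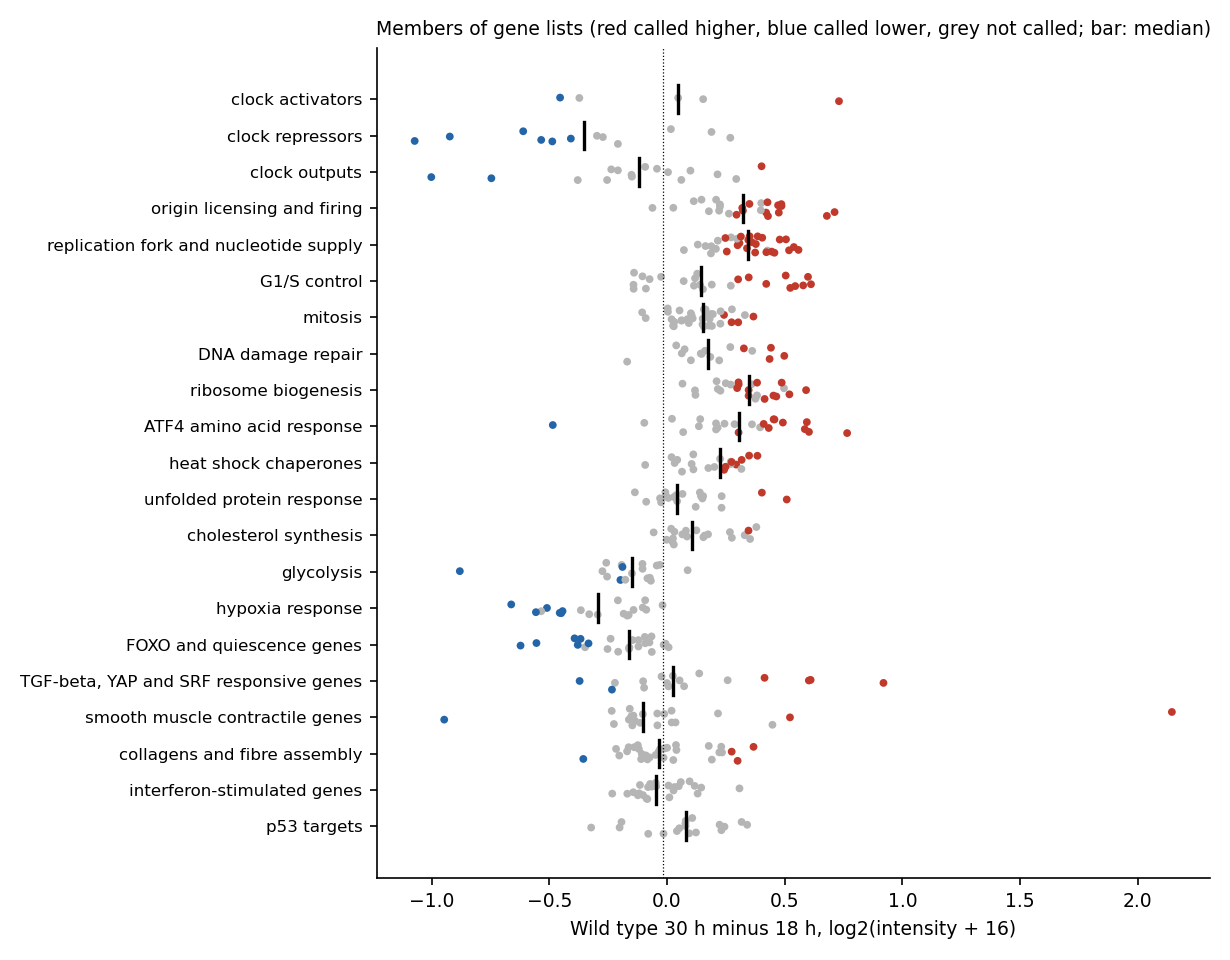
Log2 differences in wild type (horizontal axis) of the tested members of selected gene lists (rows), 1 point per gene, with the median of each list as a bar and the median of all tested genes as a dotted line. Licensing, fork, ribosome biogenesis and ATF4 lists lie to the right, with medians of 0.30 to 0.35, and the clock repressor and hypoxia lists to the left, with medians of -0.35 and -0.29.

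Promoter windows were found for 11034 of the 13956 tested genes, 279 of the 337 higher and 159 of the 216 lower. An E2F site lay in 3.87% of all windows, in 32 of 279 higher genes, 11.5%, and in 3 of 159 lower genes, 1.89%. In the licensing list it lay in 9 of 19 windows, in the G1/S list in 7 of 18, in the replication fork list in 5 of 28 and in the mitosis list in 1 of 28. A CCAAT box, read CCAAT, lay in 38.2% of all windows, 48% of higher and 38.4% of lower genes, and in 21 of 28 windows of mitosis genes. The E-box lay in 9.72% of all windows, 12.2% of higher and 10.7% of lower genes, and in 4 of 9 windows of clock repressors. The D-box lay in 0.698% of all windows and in 2 of these 9. A heat shock element lay in 0.353% of all windows and in 3 of 18 windows of the chaperone list. These are counts of letters in windows, and not of sites in use.

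Kmt2a, the gene named as deleted, still gave signal under the knockout label, with 2120.2, 2174 and 1959.7 at 18 h and 1338, 1367 and 1584 at 30 h. Its 18 h values overlapped those of wild type given above, while at 30 h all lay below all wild-type values. From 18 h to 30 h it fell by 0.54 under that label (adjusted p = 0.000367). Which exons were deleted is not given in the labels, so a probe set across the gene does not check the label, and knockout is used here only as the label. The arrays labelled knockout had 2912 genes higher at 30 h, 20.9%, and 2572 lower, 18.4%. Their time effects share no array with those of wild type, but both were tested with the same pooled variance of each gene. Of the 337 genes higher in wild type 229, 68%, had estimates above 0 in knockout, where 53.2% of all genes did. Of the 216 lower in wild type 183, 84.7%, had estimates below 0, where 46.8% of all genes did. With each array left out in turn these shares were 62.8% to 71.5% and 76.2% to 86.6%. Called in the same direction in both were 149 higher genes, 44.2% of the wild-type and 5.12% of the knockout list, and 124 lower genes, 57.4% and 4.82%. A further 58 higher genes were called lower in knockout and 6 lower genes called higher. A gene with a small pooled variance is more easily called in both genotypes. The counts called in both are therefore not from independent tests. The difference of the time effects, knockout minus wild type, was called for 20.3% of all genes and for 234 of the 553. The 553 were chosen on the wild-type estimates that this difference subtracts. A larger share and a sign opposite to the wild-type change are therefore favoured by that choice, also for the called genes named below.

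**Figure D5:**
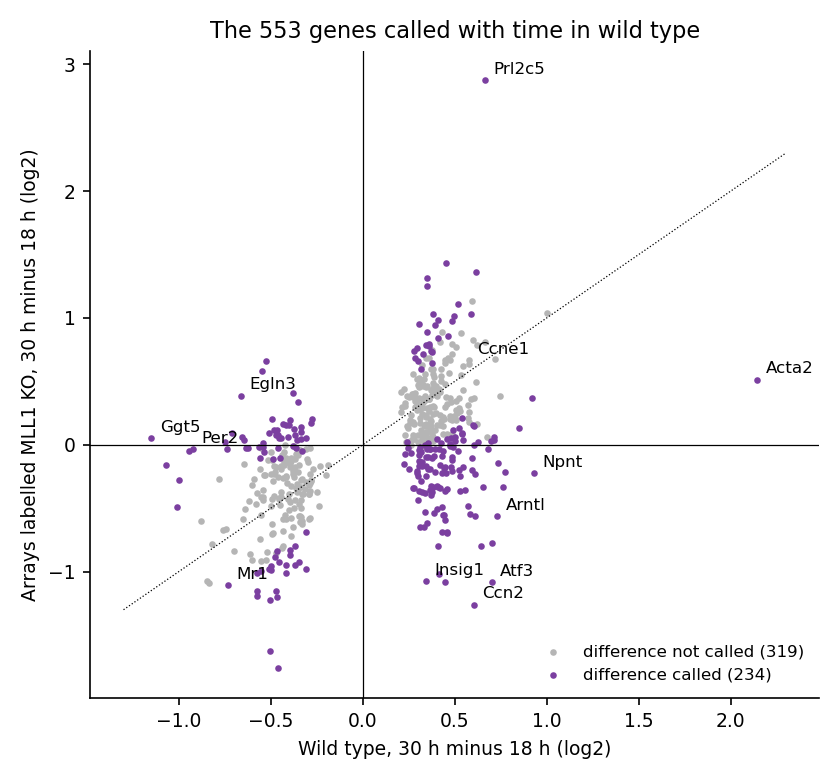
The log2 difference between 30 h and 18 h in the arrays labelled knockout (vertical axis) against that in wild type (horizontal axis) for the 553 genes called in wild type, with the line of equal change dotted. The 234 genes whose difference of time effects was called are purple, and Prl2c5, Acta2 and Atf3 lie far from the line.

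Clock genes took part in both kinds of result. Arntl, which rose in wild type, fell by 0.56 in knockout, with a difference of -1.29 (adjusted p = 4.7e-05). Per2, Per3 and Tef had knockout values of -0.03, -0.16 and 0.02, none of them called, and differences of 0.89, 0.91 and 0.77 that were called. Bhlhe41 fell in both, by 0.61 in wild type and 0.86 in knockout, with a difference of -0.25 (SE 0.14) that was not called. Of the replication genes Mcm5, Cdc6 and E2f7 had differences of -0.65, -0.72 and -0.84, all called, and the knockout values of Mcm5 and Cdc6 were 0.06 and -0.04. Ccne1 and Ccnd1 rose in both genotypes, by 0.67 and 0.43 in knockout, with differences of 0.09 (SE 0.12) and -0.11 (SE 0.08) that were not called. Dna2 rose by 0.68 in knockout, with a difference of -0.04 (SE 0.15) that was not called.

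Further named genes differed between genotypes. Acta2 had knockout intensities of 3370.1, 4563 and 4403 at 18 h and 5936, 6163 and 5401 at 30 h, a rise of 0.51 against 2.14 in wild type, with a difference of -1.63 (adjusted p = 5.22e-05). Atf3, Ptgs2 and Slc7a1 rose in wild type and fell in knockout, by 1.08, 0.33 and 0.54, with differences of -1.79, -0.98 and -1.13. Prl2c5, a proliferin, a placental hormone family of near-identical copies, was at 0.67 in wild type and rose by 2.87 in knockout, a difference of 2.21. Its knockout arrays were dim at 18 h, with 42.9, 34.6 and 55.5, and had 463, 462 and 352 at 30 h. Its wild-type call did not pass without W18b (0.57) or W30a (0.59) or W30b (0.64). Ggt5 was at 0.05 in knockout, with a called difference of 1.20. Its knockout level was low, with 225, 188 and 197 at 18 h and 220, 197 and 215 at 30 h. Among hypoxia genes Bnip3 was at 0.09, with a called difference of 0.60, while P4ha2 fell by 0.43, with a difference of 0.03 (SE 0.11) that was not called. Gas6, Hpse, A4galt and Sema4g, which encodes a semaphorin, fell in both genotypes, and their differences of 0.00, -0.25, 0.03 and 0.08 were not called.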

How the data were processed

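Total RNA of 12 samples, typically 100 ng per reaction per the labels' protocols, was labelled and hybridised to Affymetrix arrays, 3 per genotype and time. The authors deposited linear intensity values, 1 per probe set and array, made with PLIER 2.0 in Affymetrix Expression Console 1.1, per the submitters' processing notes. Any scaling between arrays or added constant was not given in the sources used here. Arrays give no count of molecules, so their number limits the precision.

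Of 35557 probe sets 21789 had 1 gene symbol, 1621 several and 12147 none in the platform annotation. Symbols were updated through RefSeq for 21698. For each of 19938 genes the probe set with the highest mean was kept, and 13956 genes with a mean log2(intensity + 16) of at least 7.576, the 30th percentile, were tested. All 12 arrays entered 1 limma 3.58.1 model in R 4.3.3 with a mean per group and moderated variances (8 residual and 7.984 prior degrees of freedom). Called means a Benjamini-Hochberg adjusted p under 0.05 over all 13956 genes. Genes called higher or lower are said to rise or fall. The pipeline was tested on simulated data.

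The comparison and the gene lists were chosen with earlier results of these data known. Genes were named by rule: Kmt2a, the 20 strongest called genes per direction among those with no overlap of their groups (predicted genes passed over), all tested clock genes, up to 4 called genes per direction of each other list, and called markers. Alternatives changed the offset, filter, scaling, variance model, array weights, probe set rule, arrays used and replicate block. Same-numbered wild-type arrays deviated together with correlations of 0.021, 0.454 and 0.005. The labels name no pairing, and the numbers were not taken as pairs.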

Additional observations from a re-analysis of the deposited data

Results flagged for a closer look

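The difference of the time effects between genotypes, knockout minus wild type on the log2 scale, was called by limma (adjusted p under 0.05) for 77 named genes. A negative value means that the gene rose less or fell more from 18 h to 30 h in the arrays labelled knockout, and a positive value the opposite. Of these 77 calls 61 held with each of the 12 arrays left out in turn.

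Among clock genes and their outputs the differences were Arntl -1.29, Nfil3 -0.75, Csnk1e -0.57, Usp2 -0.76, Tsc22d3 -0.67, Pdk4 -0.91 and Lpin1 -1.14 on the negative side, and Arntl2 0.71, Per2 0.89, Per3 0.91, Nr1d2 0.47, Ciart 0.78, Bhlhe40 0.48, Dbp 0.72, Tef 0.77, Tspan4 0.90 and Hsd17b11 1.18 on the positive side. The genes outside the clock lists were named because they were called in wild type. A difference opposite in sign to the wild-type change, from the same wild-type arrays, is favoured by that choice. For genes of DNA replication and the cell cycle, all called higher in wild type, the values were Mcm2 -0.69, Mcm3 -0.61, Mcm5 -0.65, Cdc6 -0.72, Rpa2 -0.92, Uhrf1 -0.57, E2f7 -0.84, Chek1 -0.62 and Slbp -0.81. Among contractile, YAP and matrix genes they were Acta2 -1.63, Npnt -1.16, Tnfrsf12a -0.55, Ankrd1 -1.17, Ccn1 -1.43, Ccn2 -1.86, Col8a1 -0.72, Col4a2 -0.73, Fbln2 -0.61 and Adamts4 -0.96, with Sorbs2 0.90 and Ccn5 0.80 positive. Among stress, metabolic and other genes of the remaining lists they were Atf3 -1.79, Chac1 -1.10, Slc7a1 -1.13, Mthfd2 -0.79 and Insig1 -1.42, with Egln3 1.05, Bnip3 0.60, Hsph1 0.90, Dnaja1 0.47, Errfi1 0.48, Mt2 0.61 and Nop2 0.59 positive. Other genes were Id2 -0.99, Serpinb9e -0.72, Serpinb9c -0.67, Lrrc8b -0.68, Ptgs2 -0.98, Hbegf -1.0 and Upp1 -1.48 on the negative and Prl2c5 2.21, Ggt5 1.20, Olfr1314 0.71 and Cyp2f2 0.72 on the positive side. Mean knockout intensities at 18 h and 30 h were low for Serpinb9c, 63.3 and 64.8, and Ggt5, 203 and 211. The scale understates changes of dim genes. Upp1 was dim in wild type, with means of 116 and 195, and was tested through the knockout arrays. Its wild-type call, at 0.70, did not pass in 7 of the 12 fits with an array left out.

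The other 16 calls did not pass when at least 1 array was left out. Flrt2 was at -0.88, with -1.07 to -0.67 over the 12 fits, of which 3 did not pass. Ndrg2 was at 0.52, with 0.39 to 0.65 over the 12 fits, of which 8 did not pass. Mr1 was at -0.38, with -0.46 to -0.33 over the 12 fits, of which 10 did not pass. Rora was at -0.47, with -0.55 to -0.35 over the 12 fits, of which 5 did not pass. Nr1d1 was at -0.76, with -1.04 to -0.60 over the 12 fits, of which 5 did not pass. Asf1b was at -0.33, with -0.38 to -0.28 over the 12 fits, of which 5 did not pass. Ccne2 was at -0.44, with -0.54 to -0.37 over the 12 fits, of which 5 did not pass. Ccna2 was at -0.22, with -0.25 to -0.20 over the 12 fits, of which 9 did not pass. Pdk1 was at 0.45, with 0.37 to 0.60 over the 12 fits, of which 9 did not pass. Hspd1 was at 0.28, with 0.23 to 0.32 over the 12 fits, of which 5 did not pass. Phgdh was at -0.61, with -0.77 to -0.50 over the 12 fits, of which 1 did not pass. Dcn was at 0.60, with 0.44 to 0.72 over the 12 fits, of which 5 did not pass. Sfrp2 was at 0.60, with 0.44 to 0.72 over the 12 fits, of which 5 did not pass. Notch3 was at -0.46, with -0.54 to -0.37 over the 12 fits, of which 5 did not pass. Rrp12 was at 0.44, with 0.34 to 0.53 over the 12 fits, of which 8 did not pass. Ctsl was at 0.28, with 0.25 to 0.35 over the 12 fits, of which 4 did not pass.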

How the results depend on the processing

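Leaving out 1 array at a time gave 74 to 606 higher and 55 to 429 lower genes, against 337 and 216. With array weights there were 976 higher and 665 lower, with only the 6 wild-type arrays fitted 583 and 426, and with a 2-fold change required as well 2 and 4. With array medians set equal 136 genes were lower. For the difference of time effects, 2838 genes, array weights gave 5246 and the 2-fold requirement 243. The other alternatives stayed within 1.5 times of each count. The replicate block gave 279 higher, 206 lower and 2725 for the difference. The pairing check of same-numbered arrays gave correlations of 0.021, 0.454 and 0.005 in wild type and -0.124, 0.062 and -0.316 in knockout. Wild-type arrays of unlike number gave -0.336 to 0.260. Deviations from a mean of 3 arrays constrain one another, so this check cannot decide whether same-numbered arrays share an origin. The labels do not say. The filter on wild-type arrays, with 336 higher and 219 lower of 13491, and the gene-by-gene method for array weights were chosen after seeing the data. Of 118 named genes called, 59 kept the call with every array left out in turn, 22 lost it in 1 to 3 of these fits and 37 in more, and 88 kept it in all 13 other settings. None of these 118 called genes changed direction in any setting run, while uncalled genes near 0, such as Nr1d1 (0.02, range -0.05 to 0.08 with an array left out), did. With genes split by level into 4 equal groups, 1.23% of the dimmest genes were called against 5.47% of the brightest.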
